A study of Homo sapiens with 6 samples.

Results

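The Ikaros family of zinc finger transcription factors comprises IKZF1 (Ikaros), IKZF2 (Helios), IKZF3 (Aiolos), IKZF4 (Eos) and IKZF5 (Pegasus). Its members were followed in REH, a human cell line of B-cell precursor acute lymphoblastic leukemia (BCP-ALL) that carries the ETV6/RUNX1 fusion gene. Members were found as Agilent catalogue probes whose RefSeq transcript accession maps to one of the 5 genes. Of 19721 genes with a catalogue probe and a symbol, 4 were family members, and 6 probes represented them. IKZF1, IKZF3 and IKZF4 had 1 probe each and IKZF2 had 3, while IKZF5 was not matched to any probe and has no expression value here. The family was chosen because of how IKZF2 differed in this same comparison, so all values of the family between the groups are given as a description.

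Expression was profiled on 6 one-colour arrays, of which 3 came from REH cells with a non-targeting short hairpin RNA (control) and 3 from REH cells with an shRNA against the ETV6/RUNX1 fusion (knockdown). Per the study's methods, both shRNAs were delivered by lentivirus with a GFP marker and GFP-positive cells were sorted, the knockdown shRNA is directed at the ETV6 portion of the fusion transcript, and REH cells have lost their other ETV6 allele. The control hairpin had been purchased as an ETV6 shRNA that does not target the fusion transcript. The replicates were named biological triplicates of 1 cell line. No other line and no second hairpin against the fusion entered this comparison.

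Ikaros family proteins bind DNA through a block of zinc fingers near the N-terminus, in the case of Ikaros at sites with a GGGAA core, and pair with each other through fingers near the C-terminus. Ikaros and Aiolos act in lymphoid development, where Ikaros is needed for the B-cell lineage, and IKZF1 is recurrently deleted in BCP-ALL. Helios and Eos are best known from regulatory T cells, and Helios is also expressed in early hematopoietic cells. Family members recruit the NuRD chromatin remodeling complex and other corepressors, and drugs that bind cereblon lead to degradation of Ikaros and Aiolos.

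Median raw intensity per array was between 63 and 72, against 42.25 to 48 for the negative control spots, and the scanner software flagged 45.7% to 50.9% of probes as well above background. After normalization, 28997 of 57176 probes were retained and tested together. At an adjusted p under 0.05 in limma (called, below), 451 of them (1.56%) differed between the groups, 115 (0.397%) higher and 336 lower in knockdown. Scaling on spike-in controls moved the median change over all these probes from -0.0037 to 0.317 (log2) and turned the balance to 1138 higher and 211 lower. ETV6 itself was read by 1 retained probe, A_33_P3356325, at a mean of 8.11 ± 0.23 in control and 7.41 ± 0.11 in knockdown (SD, n = 3 each). Its log2 fold change of -0.70 (SE 0.14) had an adjusted p of 0.0569 in limma and was not called. Of 18 alternatives, 1 called it, the fit with an intensity trend and a robust variance prior together (adjusted p = 0.0465 in limma). Over all 18 its log2 fold change ranged from -0.96 with slide row as a term to -0.38 with spike-in scaling. Whether the probe lies in the portion kept in the fusion was not analysed here. For the knockdown itself, the study reported silencing of the fusion in REH cells, examined by western blot and RT-qPCR, which were not re-analysed here. Values below are on a generalised log2 scale, which follows log2 for bright probes and compresses changes of dim ones, and levels of different probes are not compared with each other.

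Because the knocked-down fusion contains the DNA-binding Runt domain of RUNX1, the start regions of the family were read for RUNX1 core letters. The family had already been chosen by its IKZF2 values, so this reading was not a prediction. RefSeq (GRCh38.p14) gave 10 windows of 250 bases upstream of annotated starts for 4 members, with none for IKZF3. The letters TGTGGT, searched on both strands, were present in 3 of the 10 windows, with 1 match for IKZF1, 1 for IKZF5 and 2 for IKZF2, and in none of the IKZF4 windows. Of 35116 windows of this length over all genes, 3855 (11%) held TGTGGT at least once and 341 (0.971%) at least 2 times. The window with 2 matches is the one before the 5′-most IKZF2 start, chr2:213152457-213152706 on the minus strand. As it was picked for its matches, the 0.971% is not a chance rate for it. Which start the transcript of the IKZF2 probes uses was not analysed here. The window is shown for the one family gene whose probes were called, 5′ to 3′ in the direction of transcription and with TGTGGT in capitals.
IKZF2 upstream window: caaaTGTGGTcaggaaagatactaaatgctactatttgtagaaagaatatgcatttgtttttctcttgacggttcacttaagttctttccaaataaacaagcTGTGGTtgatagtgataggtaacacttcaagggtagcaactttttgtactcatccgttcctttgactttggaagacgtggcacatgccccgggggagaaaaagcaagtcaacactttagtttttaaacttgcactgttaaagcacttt

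Both matches read in the direction of transcription and begin 246 and 148 bases before the start. The window before the other annotated IKZF2 start held none. A second RUNX core spelling, TGCGGT, was in 5.84% of all windows and in none of the family's, and the Ikaros-type letters TGGGAA were in 20.8% of all windows and in 1 of the family's, upstream of IKZF1. These are letter matches only, since no binding was measured here.

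IKZF2 (Helios) was higher on all 3 knockdown arrays than on any control array with each of its 3 probes, whereas the probes of IKZF1 (Ikaros) and IKZF4 (Eos) overlapped between the groups and that of IKZF3 (Aiolos) was never well above background. Thus, 3 of the 5 retained family probes were called, all of them higher in knockdown and all of 1 gene. Over all retained probes, 0.397% were called higher and 8.77% had every knockdown value above every control value. As the family was chosen by this contrast, nothing is read from the comparison of those shares.

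The IKZF2 probe of lowest p was A_32_P114284, which like the other IKZF2 probes was designed on NM_001079526. It measured 10.07, 9.98 and 9.87 on control replicates 1, 2 and 3, and 11.59, 11.26 and 11.16 on knockdown replicates 1, 2 and 3. All 3 knockdown arrays were high, with a gap of 1.09 between the lowest of them and the highest control array. The group means were 9.97 ± 0.10 and 11.34 ± 0.22 (SD, n = 3 each), a log2 fold change of 1.36 (SE 0.13, 95% interval 1.06 to 1.67) or 2.57-fold. In raw intensity, before any normalization, the geometric means were 1028 in control and 2609 in knockdown. The adjusted p in limma, over all retained probes, was 0.00281. Only 2 of the 115 probes called higher had a larger log2 fold change.

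The second IKZF2 probe, A_33_P3842551, measured 6.47, 6.31 and 6.17 on the control arrays and 7.20, 7.25 and 7.11 on the knockdown arrays. Here too the knockdown arrays lay together above the control arrays, 0.64 apart at the nearest. Its log2 fold change was 0.87 (SE 0.11), or 1.83-fold, with an adjusted p of 0.00954 in limma. Its raw geometric means were 96.0 and 163, against medians of 42.25 to 48 for the negative control spots.

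The third, A_33_P3328485, measured 6.13, 5.92 and 5.88 on the control arrays and 6.94, 7.02 and 6.62 on the knockdown arrays. The groups were again separate, by 0.50, and knockdown replicate 3 was the lowest of its group. Its log2 fold change was 0.89 (SE 0.13), or 1.85-fold, with an adjusted p of 0.0204 in limma. It was well above background on 5 of the 6 arrays, the exception being control replicate 3. With no filter on dim probes it was not called (log2 fold change 0.89, adjusted p = 0.0599 in limma), nor with slide row as a term (log2 fold change 0.98, adjusted p = 0.114). With slide row the other IKZF2 probes were called. Without control replicate 2 or knockdown replicate 2, only A_32_P114284 was called among the family (log2 fold changes of A_33_P3842551 0.86 and 0.84, and of A_33_P3328485 0.86 and 0.81), and without control replicate 3 A_33_P3328485 was not (0.84). Of the 6 arrays, all on 1 slide, control replicates 1 and 2 were in row 1, and control replicate 3 and all knockdown arrays in row 2.

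**Figure D1:**
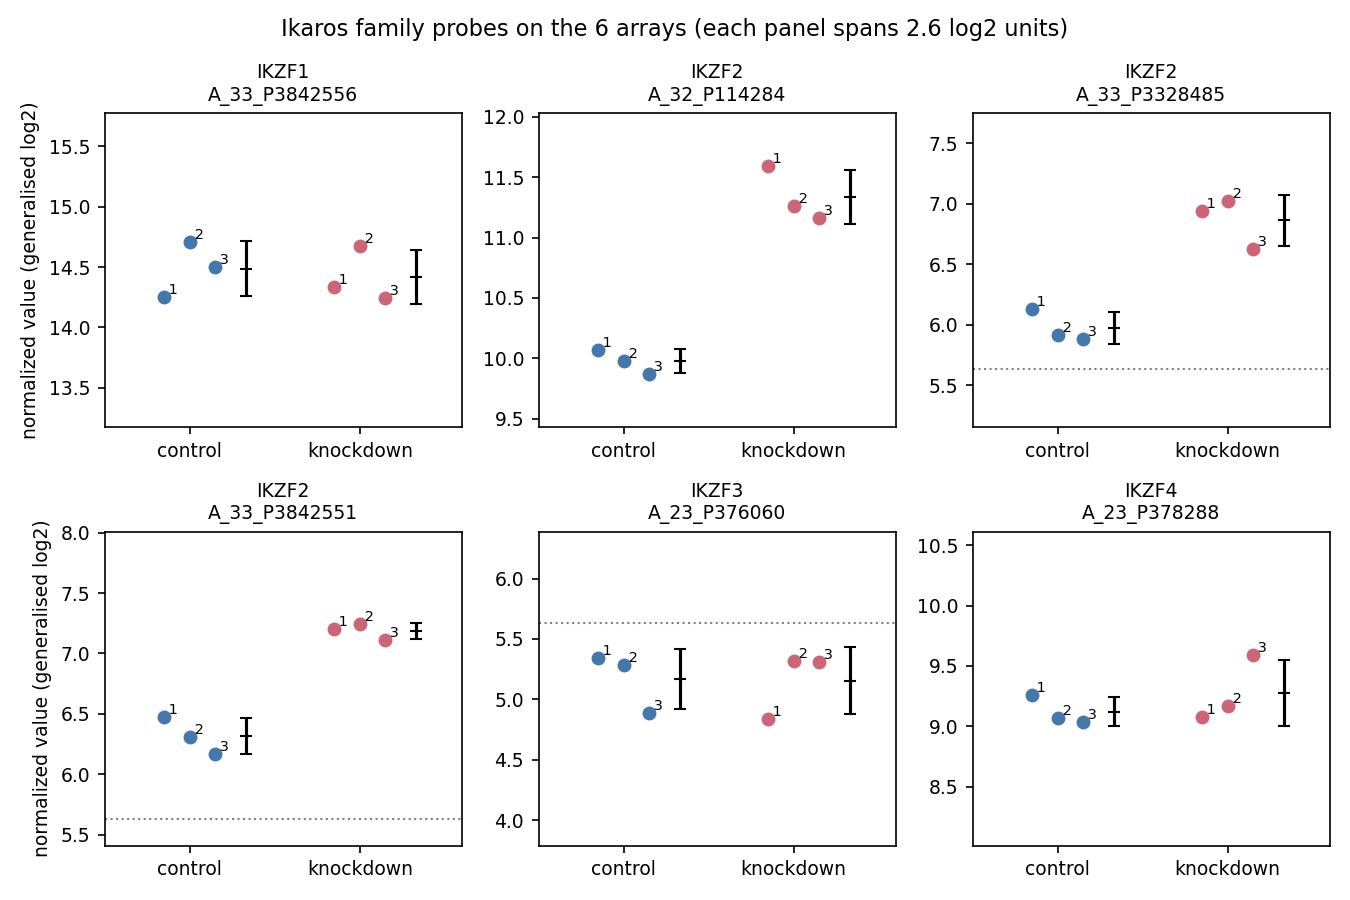
Normalized values (generalised log2, vertical axis) of the 6 Ikaros family probes on each array, by group (blue, control; red, knockdown; small digits, replicate number), with the mean and SD (black, n = 3) beside the points. Each panel spans 2.6 log2 units and the dotted line, where it falls in the panel, is the mean detection threshold of the 6 arrays. The 3 IKZF2 panels show separate groups, the IKZF1 and IKZF4 panels overlapping ones, and the IKZF3 points lie under the threshold.

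Among the control arrays, the 3 IKZF2 probes followed the same order, with replicate 1 highest and replicate 3 lowest, and after centring each probe on its control mean they differed by 0.07 or less on any control array. On knockdown arrays they spread by 0.36 to 0.73, with A_32_P114284 the highest on every one. The size of the change depended on the scale for the dim probes. On log2 of the background-subtracted processed intensity, scaled to the 75th percentile of each array, log2 fold changes were 1.42 (SE 0.13) for A_32_P114284, 1.44 (SE 0.13) for A_33_P3842551 and 1.38 (SE 0.21) for A_33_P3328485. On that scale the 3 probes differed by less than their SE, whereas on the generalised scale the dim probes changed less. With normexp background correction and quantile normalization the dim probes gave 0.63 and 0.61, against 1.32 for A_32_P114284. The 3 probes share a gene and a transcript and are not independent replicates. Averaged into 1 value per transcript, they gave a log2 fold change of 1.04 (SE 0.12).

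**Figure D2:**
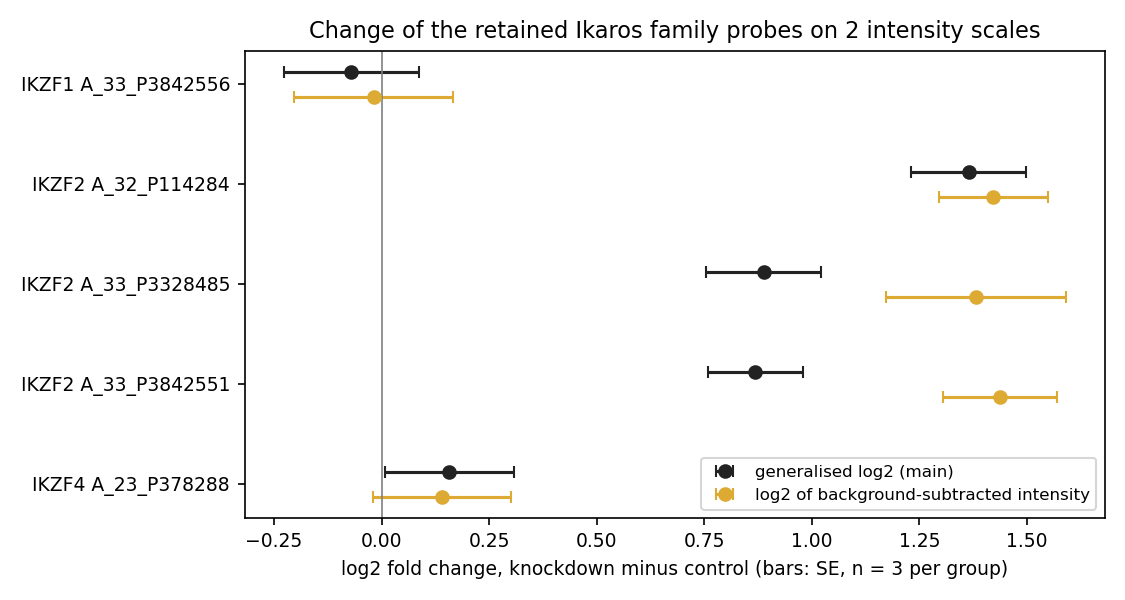
Log2 fold change, knockdown minus control (horizontal axis; bars, SE; n = 3 per group), of the 5 retained family probes on the generalised log2 scale (black) and on log2 of background-subtracted intensity scaled to the 75th percentile (yellow). On the second scale the 3 IKZF2 probes sit together between 1.38 and 1.44, and IKZF1 and IKZF4 stay near 0 on both.

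By replicate number, knockdown minus control for A_32_P114284 was 1.52, 1.28 and 1.29 in pairs 1, 2 and 3. For A_33_P3842551 the pairs gave 0.73, 0.94 and 0.94, and for A_33_P3328485 they gave 0.82, 1.11 and 0.74. As the groups of each IKZF2 probe did not overlap, any pairing had to give the same direction, so nothing is read from it. The pair with the largest difference was not the same one for each probe.

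IKZF1 (Ikaros), read by A_33_P3842556 on NM_006060, measured 14.25, 14.71 and 14.50 on the control arrays and 14.33, 14.67 and 14.24 on the knockdown arrays. The groups overlapped fully, and in both of them replicate 2 was the highest. Its log2 fold change was -0.07 (SE 0.16, 95% interval -0.43 to 0.29), with an adjusted p of 0.898 in limma. The sign was not stable, since it turned to 0.25 on the scale set by spike-in controls, 0.04 without control replicate 2 and 0.02 without knockdown replicate 3.

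IKZF4 (Eos), read by A_23_P378288 on NM_022465, measured 9.26, 9.07 and 9.04 on the control arrays and 9.08, 9.17 and 9.59 on the knockdown arrays. Knockdown replicate 3 was the highest, and the other knockdown arrays lay within the control range. Its log2 fold change was 0.16 (SE 0.15, 95% interval -0.19 to 0.50), with an adjusted p of 0.726 in limma. The value was 0.002 without knockdown replicate 3, 0.26 without knockdown replicate 1 and 0.48 with spike-in scaling, and it was not called in any of the 18 alternatives.

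IKZF3 (Aiolos), read by A_23_P376060 on NM_012481, gave 5.34, 5.28 and 4.88 on the control arrays and 4.84, 5.31 and 5.31 on the knockdown arrays. None of the 6 spots was well above background and none passed the threshold, so no fold change is given and it did not enter the test.

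**Figure D3:**
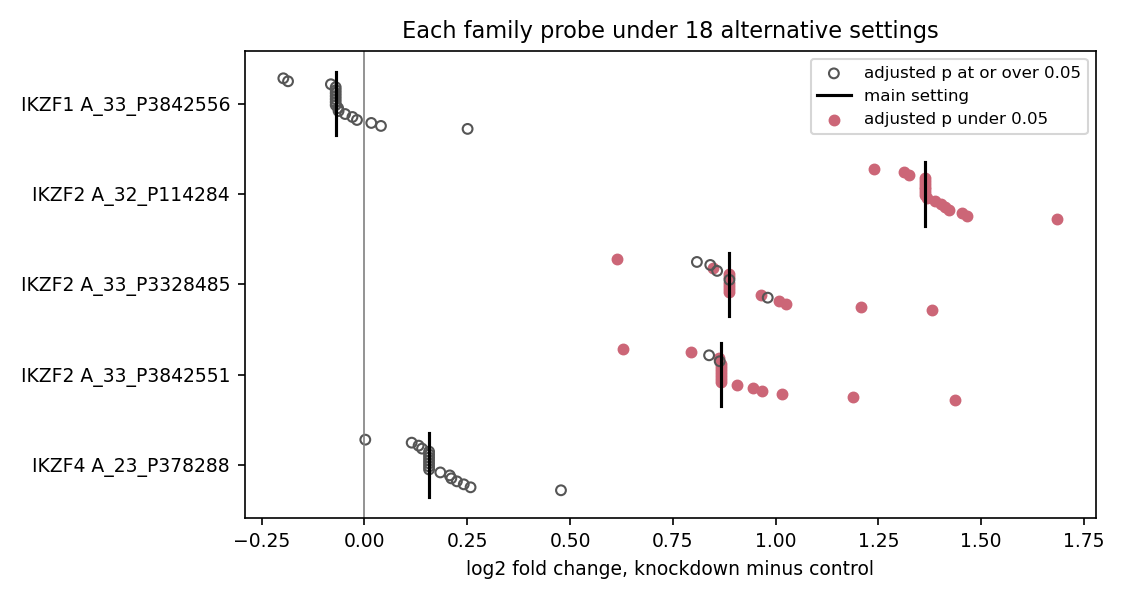
Log2 fold change, knockdown minus control (horizontal axis), of each retained family probe under 18 alternative settings (points; filled red, adjusted p under 0.05; open, not) and in the reported setting (black line). A_32_P114284 ranged from 1.24 to 1.69 and was called in all 18, A_33_P3842551 was called in 16, A_33_P3328485 in 13, and IKZF1 and IKZF4 in none.

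A contrast by which the family was not chosen, replicate 1 against replicates 2 and 3 with the group as a term, was tested on the same arrays. Here 1351 of 28997 probes (4.66%) were called in limma, and none of the 5 retained family probes was among them. A_32_P114284 was 0.26 (SE 0.10) higher in replicate 1, with an adjusted p of 0.177 in limma, and the difference of IKZF1 was -0.23 (SE 0.14), with an adjusted p of 0.371.

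The genes beside each member were read for the same groups. IKZF2 lies on chromosome 2 between ERBB4, a receptor tyrosine kinase gene whose 2 probes were not well above background on any array, and SPAG16, a sperm axoneme gene whose retained probe changed by -0.02 (SE 0.09). Hence neither neighbour of IKZF2 was called. Beside IKZF1 on chromosome 7, FIGNL1 changed by 0.02 (SE 0.15) and SPMIP7 was not well above background. Beside IKZF3 on chromosome 17, GRB7 changed by -0.13 (SE 0.13) and ZPBP2 was not well above background. Beside IKZF4 on chromosome 12, SUOX changed by 0.02 (SE 0.12) and the 3 probes of RPS26, a ribosomal protein gene with near-identical processed copies, by -0.14 to 0.06. Beside IKZF5 on chromosome 10, the probes of PSTK and ACADSB changed by -0.07 to 0.06. None of these neighbours was called.

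Next, the partners of the family were examined. Of 17 genes of NuRD and other corepressors, 16 had a probe, and none of their 23 retained probes was called, where 1.56% of all retained probes were (median log2 fold change 0.10, against -0.0037 over all retained probes). The largest values were 0.40 (SE 0.16) for CHD3, a NuRD helicase, and 0.25 (SE 0.09) for MTA2, a NuRD scaffold subunit. Of the cereblon ubiquitin ligase genes, 0 of 7 retained probes were called (median -0.11), with CUL4B, a cullin, at -0.34 (SE 0.13) and, by its other probe, -0.13 (SE 0.14), and CRBN, the substrate receptor cereblon, at -0.23 (SE 0.14) the largest.

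Of the genes known as regulated by Ikaros in B-cell precursors, 28 probes of 23 genes were retained, with a median log2 fold change of 0.06, and 1 probe (3.57%) was called, against 1.56% of all retained probes. A probe of KIT in this list (-0.37, not called) was retained through the control arrays alone. The called probe was that of CCND2, the D-type cyclin D2, with 10.05, 9.32 and 8.95 on the control arrays and 7.93, 6.70 and 6.69 on the knockdown arrays. All knockdown values were below all control values, and the log2 fold change was -2.33 (SE 0.38, adjusted p = 0.0285 in limma). It was called in 10 of 18 alternatives, with a log2 fold change between -2.74 and -1.84 over all of them, and with slide row as a term it was -1.84 with an adjusted p of 0.296 in limma. Of the 6 fits that left out 1 array, those without control replicates 1 or 2 and without knockdown replicates 2 or 3 also lost the call (adjusted p = 0.0633, 0.104, 0.122 and 0.136 in limma), at log2 fold changes of -2.03, -2.39, -2.13 and -2.13. The next largest was IGLL1, a surrogate light chain gene of precursor B cells, whose probes changed by 0.68 (SE 0.22) and 0.53 (SE 0.15) and were not called. With the replicate number as a block, 4 probes of this list were called where 3.06% of all retained probes were (887 of 28997), namely CCND2, CD79B and the 2 of IGLL1. Spike-in scaling called 7 probes of this list, where 1349 of all 28997 were called.

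The labelled cell type was checked with B-cell precursor markers. Of 12 genes, 10 were well above background on all 6 arrays, among them CD22, PAX5 and EBF1. VPREB1 was not retained, and CD34 was not well above background with one probe and on 2 of 6 arrays with the other. Of 16 retained probes, several of which share a gene, 14 had a log2 fold change above 0 and 2 below it, against 49.1% above 0 of all retained probes. One of the probes below 0, that of CD34, was retained through the control arrays alone, so the filter favoured that sign. The median of the 16 was 0.22 and none was called, where 1.56% of all retained probes were. The level summed over all 19 probes of the list, retained or not, was 17.87 to 17.97 in control and 18.18 to 18.33 in knockdown. CD22, an inhibitory B-cell receptor, was at 0.67 (SE 0.13, adjusted p = 0.0598 in limma) after IGLL1. With the replicate block, 4 probes were called, those of CD22, CD79B and IGLL1, against 3.06% of all retained probes in that fit, and without control replicate 1 that of CD22 was (0.80, adjusted p = 0.0208 in limma). Spike-in scaling called 6 probes of this list, where 1349 of all 28997 were called. This list and the Ikaros-regulated list share genes and are not separate observations.

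Since Helios and Eos are expressed in T cells, T-cell markers were measured beside IKZF2. On no array were FOXP3, CTLA4, CD3E, CD3G or CD7 well above background, whereas CD3D, CD4, CD8A, LCK and ZAP70 had a probe that was on all 6. None of the 11 retained probes of 20 was called, where 1.56% of all retained probes were, with a median log2 fold change of 0.10, and the CD3E probe among them was retained through the knockdown arrays alone. The level summed over all 20 probes was 12.71 to 12.95 in control and 12.87 to 13.03 in knockdown. It was carried mostly by CD4, whose probe had means of 12.34 in control and 12.44 in knockdown. ZAP70, a kinase of T-cell receptor signalling, had the largest value at 0.90 (SE 0.21, adjusted p = 0.112 in limma). This probe was called with the replicate block, with spike-in scaling (1.22) or without knockdown replicate 1 (0.64). The other ZAP70 probe was at 0.14 (SE 0.61), or 0.98 and called without control replicate 1. IL2RA (CD25), the alpha chain of the interleukin-2 receptor, was at -0.84 (SE 0.27) with a probe that was retained through the control arrays alone and well above background on 2 of 6 arrays, and its other probe was not retained. Of 7 myeloid marker probes 3 were retained, and ELANE, CD33, S100A8 and S100A9 were not well above background on any array. MPO, the granule enzyme myeloperoxidase, was called lower at -2.02 (SE 0.16, adjusted p = 0.00128 in limma), and the summed myeloid level, carried by MPO, was 13.91 to 14.06 in control and 11.87 to 12.43 in knockdown. CD14 was at -0.13 (SE 0.11) and CSF1R, a growth factor receptor of macrophages, at -0.05 (SE 0.15), both well above background on all 6 arrays and neither called. By design all samples were sorted cells of the REH line, so these markers were read as genes of that line, and a part of other cell types was not tested. In these bulk samples a change in the share of REH cells that express a gene cannot be told apart from a change in RNA per cell.

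**Figure D4:**
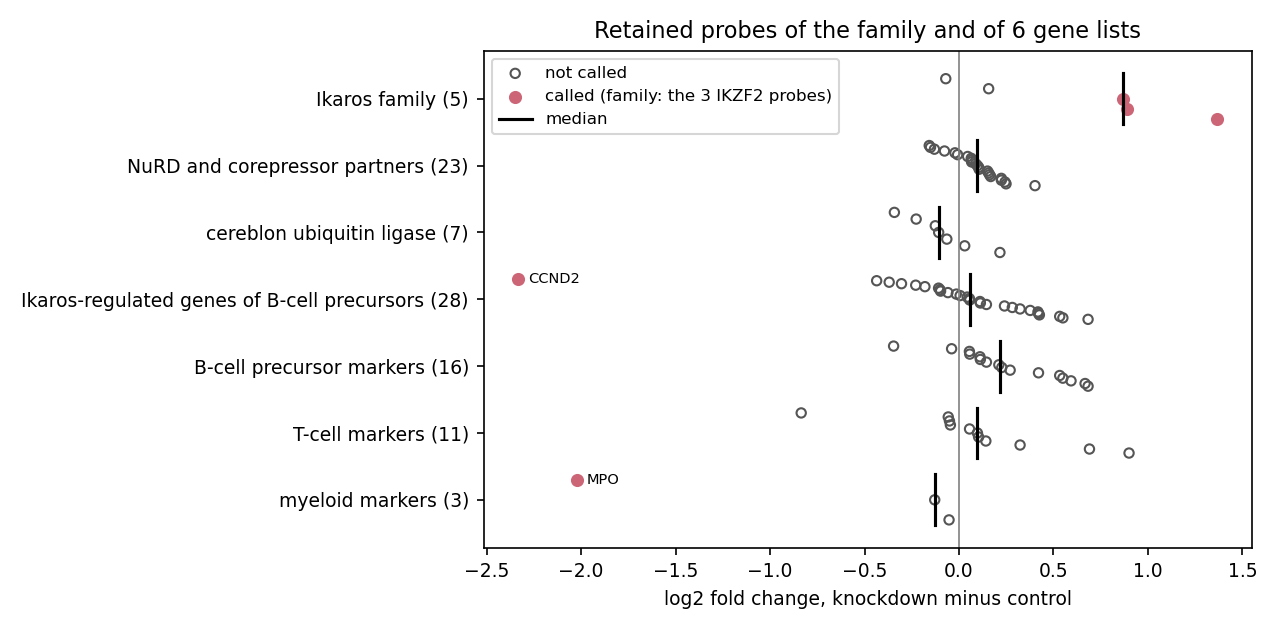
Log2 fold change, knockdown minus control (horizontal axis), of each retained probe of the family and of 6 gene lists (number of probes in brackets; filled red, called; open, not called; black line, median). Outside the 3 IKZF2 probes, CCND2 and MPO were the only called probes of these lists in the reported setting, both lower in knockdown.

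Finally, the retained named probes were ranked by the root mean square difference of their profile over the 6 arrays from that of A_32_P114284, each centred on its control mean. Among 18066 probes compared, the 5 nearest genes were LCN6 at 0.109, EEF1A2 at 0.165, CCM2L at 0.171, SPIB at 0.172 and CAPG at 0.184. LCN6 is a lipocalin, EEF1A2 a translation elongation factor, SPIB an ETS family transcription factor of B cells and CAPG an actin capping protein. Their log2 fold changes of 1.31, 1.20, 1.29, 1.35 and 1.19 follow from the way they were ranked. Centred on control, SPIB measured 1.35, 1.42 and 1.28 on the knockdown arrays and CCM2L 1.41, 1.28 and 1.17, against 1.61, 1.29 and 1.19 for the IKZF2 probe. For CCM2L, as for the IKZF2 probe, knockdown replicate 1 was the highest, and for SPIB it was replicate 2.

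**Figure D5:**
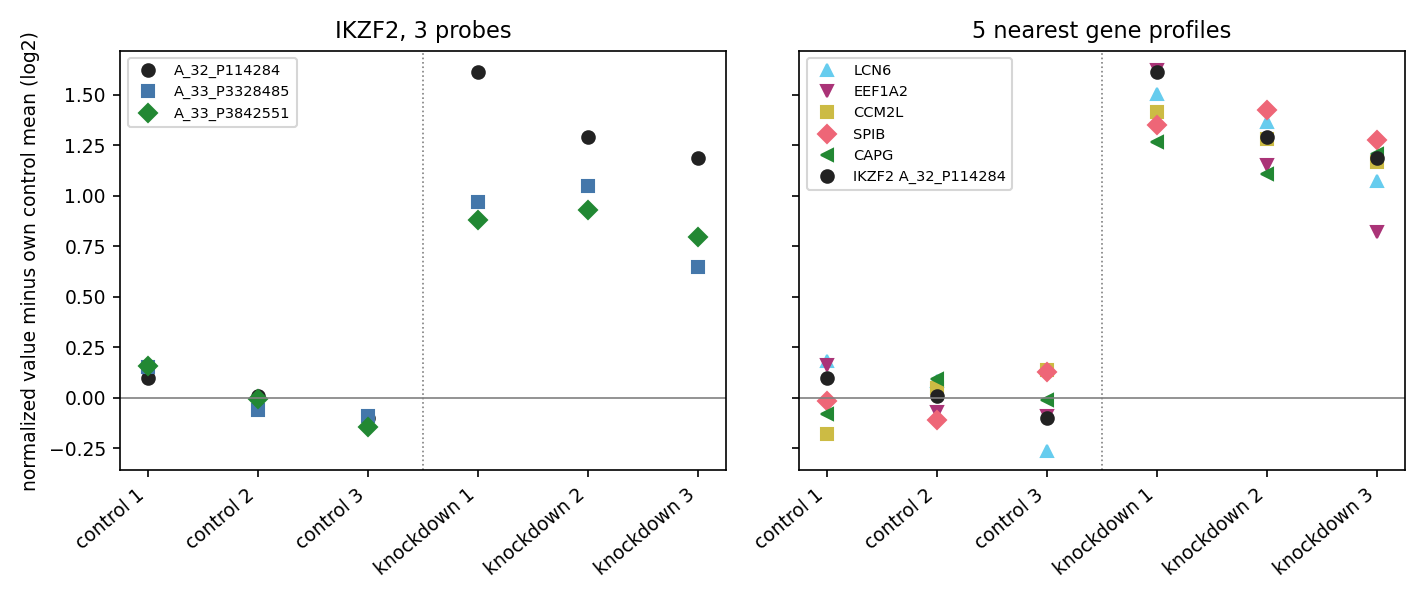
Normalized value minus the probe's own control mean (log2, vertical axis) on each of the 6 arrays, for the 3 IKZF2 probes (left) and for A_32_P114284 with the 5 gene profiles nearest to it (right). Control values lie around 0, and on the knockdown arrays A_32_P114284 lies above the other IKZF2 probes and among the 5 genes chosen for their likeness to it.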

How the data were processed

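Total RNA of 3 control and 3 knockdown samples was labelled with Cy3 and hybridised to a custom Agilent array with catalogue and non-coding RNA probes, all 6 on 1 slide read in 1 scan. The authors extracted spot intensities with Agilent Feature Extraction (version 10.7.1.1 per the submitters' processing notes), and the deposited scanner files hold raw median intensity, background-subtracted processed intensity and flags, not normalized between arrays. A table of log2 values after normalization was deposited too. For it, the methods give background subtraction, variance stabilization (VSN), a filter on negative controls and limma.

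Here the VSN model was written anew (inverse hyperbolic sine, 0.9 quantile of least squares) and fitted to raw median intensity. No spot was saturated. Outlier spots by the scanner's flag were dropped, and the remaining spots of each probe averaged. Probes were kept if their normalized value was over 1.1 times the 0.95 quantile for negative controls (308 spots), on at least 2 of 3 arrays of one group or the other. Values correlated with the deposited log2 table at r = 0.99905 to 0.99967 across 27799 probes per array, and probes are not independent replicates.

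The comparison used limma 3.58.1 (R 4.3.3; two-sided, no block), with Benjamini-Hochberg adjustment over all retained probes. The number of arrays limits the precision, and an exact permutation test of 3 against 3 cannot give a p under 0.1. Deviations of same-numbered samples from their group means correlated at 0.40, 0.26 and 0.19, so the numbers were taken to pair the samples and a fit with the replicate number as a block was run as an alternative. Other alternatives changed the normalization, scaling, filter, variance model, slide row, outlier spots, unit counted and samples.

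A symbol was found for 25728 of 34134 catalogue probes (75.4%) by unversioned RefSeq accession in a table of GRCh38.p14, a later build than that of the array design, so no probe coordinates are given. The family, the 6 gene lists and the tests were chosen with earlier results of these data known. Named were all family probes, the called genes (up to 5) and the 2 largest changes of each list, the nearest protein-coding gene with a probe on each side of a member, and the 5 profiles nearest to the IKZF2 probe of lowest p. Intervals of fold changes are at 95%.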

Additional observations from a re-analysis of the deposited data

How the results depend on the processing

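The 6 arrays and the dim level of 2 IKZF2 probes limit what can be said. A_32_P114284 was called under all 18 alternatives (log2 fold change 1.24 to 1.69, adjusted p up to 0.0214 in limma). A_33_P3328485 was no longer called with no filter on dim probes (0.888, adjusted p = 0.0599, with more probes tested) or with slide row as a term (0.981, adjusted p = 0.114). Leaving out 1 array at a time, it ranged from 0.809 to 1.007 and was lost without control replicate 2, control replicate 3 or knockdown replicate 2 (adjusted p = 0.110, 0.0859 and 0.0948), and A_33_P3842551 ranged from 0.795 to 0.946 and was lost without control replicate 2 or knockdown replicate 2 (adjusted p = 0.0589 and 0.0576). The number of family probes called was 3, and 1 to 3 when single arrays were left out. It was 1 without control replicate 2 or without knockdown replicate 2. It was also 1 of 3 units when probes were averaged by transcript or by gene, which leaves 1 IKZF2 value. The replicate block kept the number at 3, and it changed no call of a family probe or of the partner lists beyond those given with the results. IKZF1 turned to 0.251 with spike-in scaling and ranged from -0.197 to 0.040 when single arrays were left out, with 0.040 without control replicate 2 and 0.017 without knockdown replicate 3.

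Spike-in scaling moved the median of all probes from -0.0037 to 0.317 and gave 1138 probes higher and 211 lower, with A_32_P114284 at 1.69, and 6 probes of the B-cell precursor list, 7 of the Ikaros-regulated list, 1 of the NuRD list and 2 of the T-cell list were then called. The block gave 887 calls in all, against 451, and 4, 4, 0 and 1 in those lists. Slide row as a term gave 246 calls, no filter 224, and leaving out single arrays 177 to 481. The Ikaros-regulated list fell to 0 calls with 75th percentile scaling, no filter, the intensity trend with robust variance prior, or slide row. In these fits CCND2 was at -2.64, -2.33, -2.33 and -1.84. The list had 0 to 1 calls when single arrays were left out. The B-cell precursor list had 1 call with normexp or with the intensity trend and 0 to 1 when single arrays were left out. The T-cell list had 0 to 1 when single arrays were left out, and the probe called was one of ZAP70. The cause of these moves was not tested. The count for replicate 1 against replicates 2 and 3 was 0 under all 17 alternatives run.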
